A study of Mus musculus with 6 samples.

Results

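Prdm1, also called Blimp1, was examined in the facial skin of mouse embryos that carry a mutant Trps1 gene. The gene was taken as every probe set that the platform annotation gives to Prdm1, which was 1 probe set of 22626 and 1 gene of 12393 measured. It was chosen by the difference between its wild-type and mutant signals in these same arrays, so that difference is described and not tested. Total RNA came from whole whisker pads, the part of the snout where the whisker follicles form. Pads were dissected at E12.5, mid-gestation, from 3 wild-type embryos and 3 homozygous Trps1 mutant embryos, and each embryo's RNA was hybridised to its own Affymetrix MOE430A array. The labels give neither the strain nor the kind of Trps1 mutation, and they name no allele or treatment that both groups share. The series title asks for the transcriptional targets of Trps1 in vibrissae.

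Prdm1 encodes a DNA-binding repressor with a PR domain and a row of C2H2 zinc fingers. It acts by bringing co-repressors such as histone deacetylases, the histone methyltransferase G9a and Groucho proteins to its target genes, and it is best known for setting the fate of plasma cells and of primordial germ cells. In the mouse whisker pad it is known from the mesenchymal condensates under the follicle placodes, and embryos that lose it lack normal vibrissae. Trps1 is itself a repressor with a GATA-type zinc finger.

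The stretch of 250 bases before the Prdm1 start is shown because Trps1 recognises GATA-type DNA and Prdm1 differed between the genotypes. It lies on the minus strand of chromosome 10 at chr10:44458749-44458998, in the RefSeq promoter table of build GRCm38.p6, which gives 1 start for the gene. Capitals mark each CG dinucleotide.
Prdm1: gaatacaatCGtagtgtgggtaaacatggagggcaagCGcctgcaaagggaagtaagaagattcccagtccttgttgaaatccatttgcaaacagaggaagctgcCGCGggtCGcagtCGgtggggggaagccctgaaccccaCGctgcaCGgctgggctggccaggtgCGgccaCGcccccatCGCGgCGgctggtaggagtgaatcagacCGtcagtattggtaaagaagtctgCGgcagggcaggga
The window holds 15 CG dinucleotides, against a median of 6 over the 32851 promoters of the table, and its GC content is 59.2%. A GATA-type word (AGATAA or AGATAG or TGATAA or TGATAG, on either strand) occurs in 26.5% of those promoters and is not among the letters of the Prdm1 window. A Prdm1-type word (AGTGAAAG or AGCGAAAG, on either strand, letters that interferon regulatory factors also bind in part) occurs in 1.5% of the promoters and is likewise not among its letters. A missing word says only that these letters are not in this window.

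Prdm1 read 308.5, 284.3 and 293.2 in the wild-type pads and 117.7, 136.2 and 131.1 in the mutant pads, as linear array signals. All 3 mutant embryos lay below all 3 wild-type embryos, and the gap between the groups, 148.1, was larger than the whole range within either of them (24.2 and 18.5). The means were 295.3 ± 12.2 in wild-type and 128.3 ± 9.56 in mutant embryos (SD, n = 3 each), a ratio of 2.30 of wild-type over mutant. On the log2(signal + 16) scale, used for every difference given here, mutant minus wild-type was -1.11 (SE 0.14 from limma). The 16 added before taking logs pulls differences of dim genes toward 0. Over single pairs of a mutant and a wild-type embryo the difference ran from -1.28 to -0.98. In a bulk sample of a whole pad, fewer Prdm1-expressing cells and less Prdm1 RNA in each cell cannot be told apart.

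**Figure D1:**
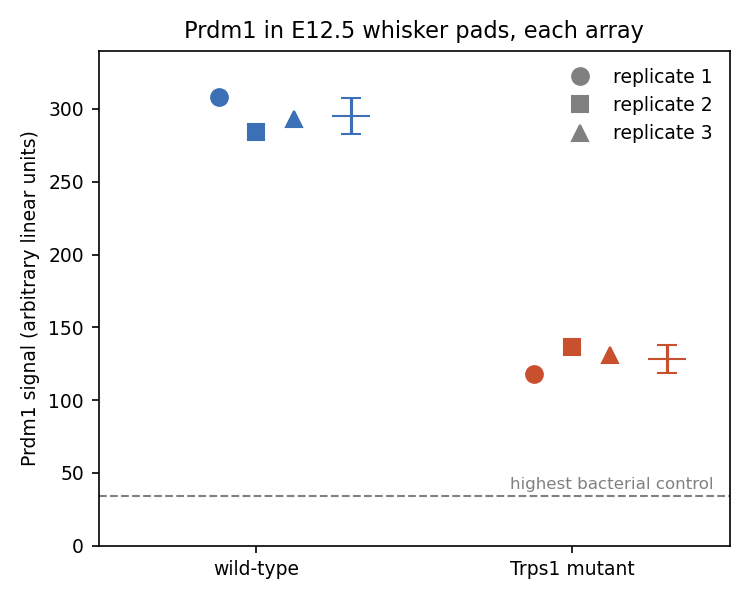
Prdm1 signal (linear units) on each of the 6 arrays, with marker shape for the replicate number and, to the right of each group, the mean and SD of its 3 arrays. The wild-type arrays lie between 284.3 and 308.5 and the mutant arrays between 117.7 and 136.2. All lie above the dashed line at 33.8, the highest of the 27 bacterial control probe sets used for background.

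Prdm1 was measured above background in both genotypes. Background was read from the 27 control probe sets for the bacterial genes Dap, Lys, Phe, Thr and Trpn, taken to have no added RNA. They have no target in mouse RNA and read 0.4 to 33.8. The mutant mean of Prdm1 was 3.8 times the highest of them, which is called the highest bacterial control here. Control probe sets for BioB, BioC, BioD and Cre were left out of this range. The signal was therefore lower in the mutant and still present. Because a single probe set represents the gene, no second probe set could be set beside it.

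In the table of 65 probe sets that the authors deposited as changed, Prdm1 is listed as higher in wild-type by 2.14-fold. It has the fourth largest fold of the 23 probe sets listed in that direction and rank 12 of all 65 in the authors' deposited table. The normalized log2 group values in the authors' deposited table are 0.51 for wild-type and -0.59 for mutant. These come from the same 6 arrays and are not a second measurement.

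Among all genes Prdm1 had the 15th lowest difference of 12393. Limma with Benjamini-Hochberg adjustment passed 0 genes (0% of those tested) at an adjusted p of 0.05, Prdm1 among the genes that did not pass, and 666 genes (5.37%) had an unadjusted p under 0.05. The methods' t-test also passed 0 genes after adjustment, with 633 at an unadjusted p under 0.05. Prdm1 was 1 of 599 genes (4.83%) with every mutant array below every wild-type array, and 1 of 20 of these that were also at least 2-fold lower. These counts place the gene and are no evidence about it, since the contrast was the ground for choosing it.

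The spread of Prdm1 among embryos of the same genotype was small, and the choice of the gene was not independent of it. The 3 wild-type signals had a coefficient of variation of 4.14%, where the median over the 9449 genes with a wild-type mean of at least 33.8 was 14.4%, and 7.04% of those genes varied less. On the log2 scale the within-group SD of Prdm1 was 0.079, and among the 500 genes nearest to it in mean level the median was 0.21, with 4.2% of them below Prdm1. A gene picked for a clear gap between groups is more likely to have a small spread, so this value is a description too.

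**Figure D2:**
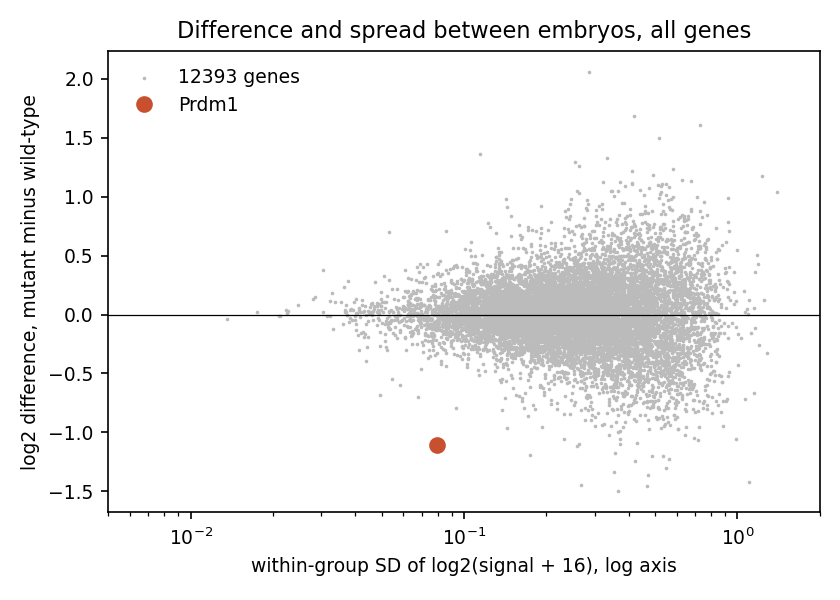
Each of the 12393 genes by its within-group SD of log2(signal + 16) (log axis) and its log2 difference, mutant minus wild-type. Prdm1 lies at an SD of 0.079 and a difference of -1.11, to the left of the other genes with differences of that size.

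The arrays differ in ways that the genotypes do not explain, and the Prdm1 signals were compared with these. Both replicate 3 arrays stood apart on the first principal component (36.8 and 31.0, against -30.8 to -4.89 on the other 4), while their Prdm1 signals, 293.2 and 131.1, were the middle values of their groups. Wild-type replicate 3 read as female (Xist 461.5, Eif2s3y 11.9) and the other 5 arrays as male (Xist 44.0 to 93.7, Eif2s3y 207.3 to 272.3). Its Prdm1 signal lay between those of both other wild-type embryos. Mutant replicate 3 had the highest ratio of 3' to 5' actin control signal (1.35, against 1.07 to 1.19), a sign of RNA quality, and its Prdm1 signal was again the middle one. Without both replicate 3 arrays (chosen once the arrays had been seen) the Prdm1 difference was -1.13.

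Trps1, the mutated gene, read 807.6, 1061.4 and 748.1 in wild-type and 1297.3, 1491.9 and 1506.7 in mutant embryos at its 1 probe set. Its difference of 0.72 (SE 0.18, limma adjusted p = 0.603) thus runs opposite to that of Prdm1, and since the labels do not say what the mutation alters, the level does not check them. Defining markers of the labelled tissue were present, with 12 of 12 facial mesenchyme genes and 9 of 9 skin epithelium genes above the highest bacterial control in at least 1 group.

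Of the other PRDM family genes, which share the PR domain, 3 of 14 were measured and 0 of 3 had an unadjusted p under 0.05, beside 5.37% of all genes. Prdm4 read 241.0, 269.2 and 277.4 in wild-type and 206.5, 231.0 and 242.4 in mutant embryos, with a difference of -0.20 (SE 0.15) and overlapping groups. Mecom, a PRDM member known from blood stem cells, differed by 0.03 (SE 0.29) near the bacterial controls, and by 0.48 at its dimmer probe set. Prdm9, the meiotic recombination factor, had both group means under them. Whether Prdm1 differed from these genes in its response was not tested.

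The co-repressors that Prdm1 is known to work with were all measured, and 0 of 9 had an unadjusted p under 0.05 in either direction, beside 5.37% of all genes. Their median difference was -0.17, beside 0.00017 over all genes, and 6 of 9 were lower, as were 6190 of the 12393 genes. Hdac1, a histone deacetylase, read 1474 ± 191.7 in wild-type and 1111 ± 261.5 in mutant embryos, with a difference of -0.42 (SE 0.21), the most negative of the list. Ehmt2, which encodes G9a, read 803.7 ± 64.6 and 676.2 ± 56.3 at its brighter probe set, with all mutant arrays below all wild-type arrays, and differed by 0.07 at its other one. Prmt5, an arginine methyltransferase, differed by -0.15, Hdac2 by -0.19 and Kdm1a by -0.18 (0.02 at its dimmer probe set). The Groucho genes Tle1, Tle3 and Tle4 differed by 0.14, 0.14 and 0.19 (Tle3 by -0.12 and -0.10 at its dimmer probe sets), and Tle2 by -0.17. The differences of the partners, at their brightest probe sets, each lay within about 2 standard errors of 0. Prdm1 was chosen for a large difference, so its size is no measure for theirs.

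Genes that Prdm1 is known to repress in blood cells gave no common direction beside the lower Prdm1 signal. Of 9 measured, 5 were higher and 4 lower in the mutant, 0 had an unadjusted p under 0.05 (5.37% of all genes), and the median was 0.06. The sign of that median was not stable, since it ran from -0.13 to 0.07 when single arrays were left out and was -0.09 with a floor of 32 on the signal. Myc, a growth regulator, read 238.7, 210.1 and 156.8 in wild-type and 178.2, 189.3 and 172.9 in mutant embryos, with overlapping groups and a difference of -0.13 (SE 0.18). Bcl6, a repressor of germinal centre B cells, differed by -0.26, and Id3, an inhibitor of bHLH factors, by -0.23. Irf8, a factor of myeloid cells, read 33.1 ± 2.50 and 45.6 ± 7.20, a difference of 0.32 (SE 0.15), but at its dimmer probe set, under the bacterial controls, the difference was -0.21. Over the 199 measured genes whose promoter window holds a Prdm1-type word the median difference was 0.01, and 4.02% were lower and 3.52% higher at an unadjusted p under 0.05. Over the 9688 without it those shares were 2.29% and 2.79%, and the median was 0.0016.

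Signals known to induce Prdm1 in germ cell precursors of the mouse, BMP ligands with their receptors and Smads and Wnt3, had a median difference of 0.24 over 10 genes, of which 7 were higher and 3 lower in the mutant. That median was 0.0033 without mutant replicate 3, 0.06 without both replicate 3 arrays and 0.03 with a floor of 32. One member, the type II receptor Bmpr2, had an unadjusted p under 0.05 (limma adjusted p = 0.854), beside a background of 2.89% of genes higher. It read 61.0, 59.9 and 54.4 in wild-type and 94.9, 75.6 and 84.4 in mutant embryos, so its groups did not overlap, and the difference was 0.44 (SE 0.15). Bmp4, the ligand that starts Prdm1 expression in those precursors, read 545.1, 772.7 and 456.5 and then 761.2, 944.9 and 701.3, with overlapping groups and a difference of 0.45 (SE 0.23). Smad1, which carries the BMP signal to the nucleus, read 661.5, 608.1 and 359.1 and then 353.6, 415.8 and 430.1, a difference of -0.39 (SE 0.24), and its dimmer probe set gave 0.20. The ligand Bmp2 differed by -0.27, and the receptor Bmpr1a by -0.15, while its dimmer probe sets gave values from -0.34 to 0.37. Both group means of Bmp8b and of Wnt3 lay under the highest bacterial control.

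Other genes of the dermal condensate and papilla, the structure Prdm1 is known from, did not all differ in the direction of Prdm1. Of 19 measured markers, 14 were lower and 5 higher in the mutant, with 5 lower and 0 higher at an unadjusted p under 0.05, beside backgrounds of 2.49% lower and 2.89% higher over all genes, and the list median was -0.17. That median was -0.42 without wild-type replicate 3 and -0.08 without wild-type replicate 1. The higher markers were Bmp4 at 0.45, Inhba, an activin subunit, at 0.28, the adhesion molecule Ncam1 at 0.20, the Wnt effector Lef1 at 0.12 and Vcan at 0.10. Bmp4 was also counted as higher at an unadjusted p under 0.05 without wild-type replicate 2 and with the replicate block. The markers were listed with earlier results of these arrays known, and Sox18 and Cdkn1a are also in the authors' deposited table, so the count is no independent evidence. Sox18, an HMG-box factor of dermal papilla and endothelium, read 767.5, 594.3 and 517.5 in wild-type and 415.7, 300.4 and 220.8 in mutant embryos, with a difference of -0.99 (SE 0.26). Cdkn1a, the cell cycle inhibitor p21, read 269.2, 233.7 and 282.2 and then 160.0, 193.5 and 121.8, a difference of -0.69. Neither overlapped between the groups at these probe sets. The dim second probe set of Cdkn1a read 30.5, 9.5 and 32.4 and then 57.5, 8.4 and 4.2, with overlap and a difference of -0.22. The forkhead gene Foxd1 differed by -0.91 with 1 high wild-type array (432.7, against 178.2 and 145.1), and the BMP antagonist Nog and the ligand Fgf10 differed by -0.99 and -0.95 with mutant means under the highest bacterial control. The 5 had limma adjusted p from 0.616 to 0.904 over all genes. With single arrays left out, the count ran from 3 of 19 (without mutant replicate 1 or mutant replicate 3) to 6 (without wild-type replicate 3). It was 4 without both replicate 3 arrays.

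Prdm1 varied less between wild-type embryos than 17 of the 18 condensate markers that could be compared. A gene chosen for its contrast is more likely to vary little, so this ranking is a description. Among facial mesenchyme markers 4 varied less than Prdm1 and 8 more, and among skin epithelium markers 1 varied less and 8 more. Its coefficient of variation of 4.14% compares with a median of 23.4% over the 18 markers whose wild-type mean reached 33.8, and 1 of them, the matrix proteoglycan Vcan at 2.68%, varied less. Sox2, a factor of condensates in some hair types, read 120.8, 127.6 and 54.2 in wild-type and 34.6, 84.0 and 140.0 in mutant embryos. The chemokine receptor Cxcr4 read 200.7, 146.0 and 73.3 and then 121.8, 118.0 and 66.1. Both overlapped between the groups, with replicate 3 the lowest wild-type array for each. Sox2 was among the genes lower at an unadjusted limma p under 0.05 without both replicate 3 arrays (3.41% of all genes). Cxcr4 was among them without wild-type replicate 3 (2.19%). Hey1, a Notch target, differed by -0.11 with a wild-type variation of 4.55%. The condensate markers as a sum overlapped between wild-type (5970 to 8181) and mutant pads (5518 to 7104). A linear sum weighs the brightest members most, here Crabp1, Vcan and Ptch1, with means of 1599, 998.0 and 911.4 over the 6 arrays.

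**Figure D3:**
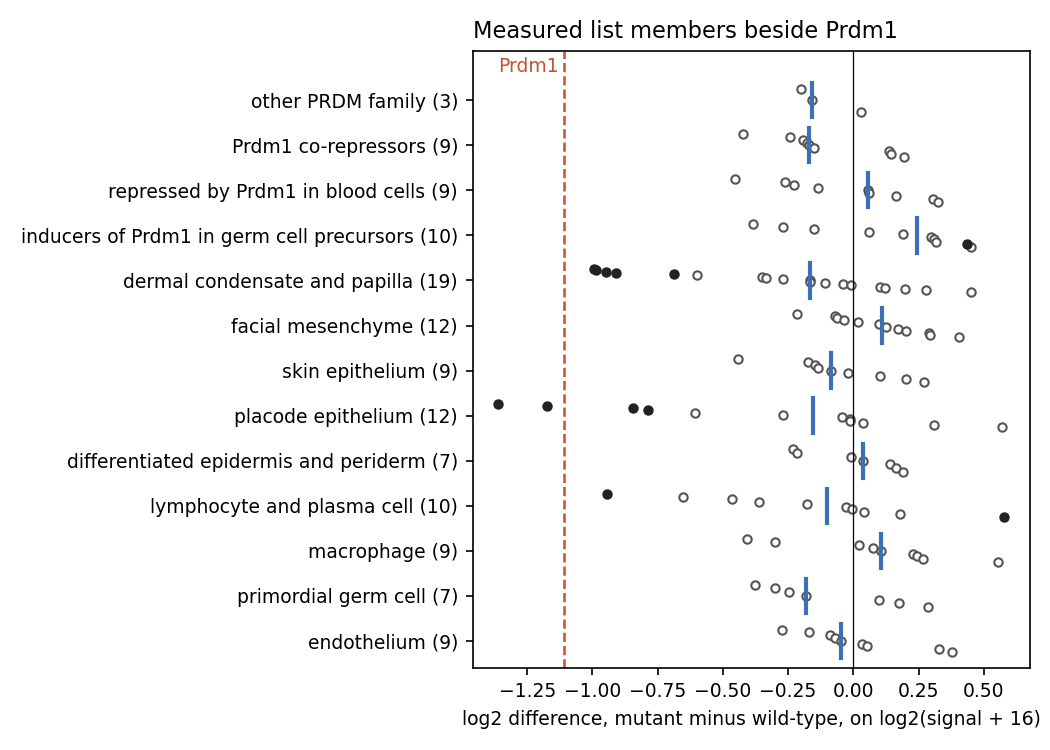
Log2 difference, mutant minus wild-type, of each measured member of 13 gene lists, with the number measured in brackets. Filled points have an unadjusted limma p under 0.05, open points do not, blue bars are list medians, and the dashed line is Prdm1 at -1.11, and the points left of it are Sox21 and Lhx2 of the placode list, whose mutant means lie under the highest bacterial control.

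Of 12 measured markers of the epithelial placode, a list that does not hold Prdm1, 9 were lower and 3 higher in the mutant. At an unadjusted p under 0.05, 4 were lower and 0 higher (2.49% and 2.89% of all genes), with limma adjusted p from 0.596 to 0.92. The list median of -0.16 was -0.06 without wild-type replicate 1, -0.36 without mutant replicate 3 and -0.39 without both replicate 3 arrays. The keratin gene Krt17 differed by 0.57 and Edaradd, the adaptor of the receptor Edar, by 0.31. Lhx2, a LIM homeodomain factor, read 122.0, 81.6 and 71.0 in wild-type and 19.4, 33.2 and 42.3 in mutant embryos, with a difference of -1.18 (SE 0.25). The HMG-box factor Sox21 differed by -1.36. The mutant means of Lhx2 (31.6) and Sox21 (21.6) lay under the highest bacterial control, so the size of both differences is uncertain. Further differences were those of the Wnt inhibitor Dkk4 at -0.84 and of Sostdc1, a BMP and Wnt antagonist, at -0.79, the last at 1 of its 2 probe sets, the other giving -0.27. Summed placode signal was 897.7 to 1647 in wild-type and 774.2 to 841.9 in mutant embryos, without overlap. The brightest gene in that sum is Sostdc1, taken at its brighter probe set (means of 519.8 in wild-type and 276.8 in mutant embryos). Its other probe set, not used in the sum, read 554.5, 322.4 and 147.3 and then 424.8, 337.2 and 99.5, with overlapping groups. Lhx2, Sox21 and Dkk4 are also in the authors' deposited table. The part of a change in placode or condensate cell number in the Prdm1 difference was not tested.

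Markers of other cells known to express Prdm1 were examined beside it. Lymphocyte and plasma cell markers read at the level of background, with both group means of 8 of 10 measured genes under the highest bacterial control and none at 0. Their summed signal was 241.2 to 279.6 in wild-type and 171.5 to 232.7 in mutant embryos, which did not overlap and was lower in the mutant. Of the 10 genes 7 were lower and 3 higher. The B cell receptor gene Cd79a read 29.0, 48.8 and 53.6 and then 19.2, 19.1 and 7.0. Its difference of -0.95 (limma adjusted p = 0.624) was the most negative of the list, while Cd3e of T cells differed by 0.58. The sum adds mostly signals at background level, and it was not examined without Cd79a. The plasma cell genes Jchain and Tnfrsf17 were under the highest bacterial control in both group means. The part of these cells in the Prdm1 difference was not tested.

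Primordial germ cell markers gave summed signals of 389.9 to 427.2 in wild-type and 374.5 to 406.9 in mutant embryos, which overlapped. The defining genes Ddx4, Dazl and Pou5f1 were under the highest bacterial control in both group means, and 4 of the 7 measured markers were above it. Those 4 were Dppa3 (64.3 and 46.0), Dnd1 (67.3 and 54.9), Kit (116.0 and 100.2) and Tfap2c (118.1 and 142.6), as wild-type and mutant means. None of 7 had an unadjusted p under 0.05, beside 5.37% of all genes. Nor had any of 9 macrophage markers (summed signal 552.0 to 604.7 and 508.3 to 707.9) or of 9 endothelial markers (1212 to 1402 and 1062 to 1403), whose ranges overlapped. Differentiated epidermis and periderm, where Prdm1 is known in later skin, gave 0 of 7 with overlapping sums (538.8 to 573.8 and 569.2 to 593.7). Skin epithelium markers gave 0 of 9 with overlapping sums (3084 to 4889 and 2843 to 4322). Facial mesenchyme markers gave 0 of 12, with 8 higher and 4 lower in the mutant. Their sums did not overlap and were higher in the mutant (18933 to 20339, against 18295 to 18711 in wild-type). Without the collagens Col3a1 and Col1a2, left out once their values had been seen, the sums of the other 10 overlapped (9652 to 9987 in wild-type and 9560 to 10217 in mutant embryos).

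The genes next to Prdm1 on chromosome 10 had smaller differences than Prdm1, as had most genes, since Prdm1 was chosen for a large one. In the order of the reference annotation the nearest measured protein-coding genes were Atg5, Crybg1 and Rtn4ip1 on one side and Prep, Popdc3 and Bves on the other. Atg5, an autophagy gene and the direct neighbour, read 216.0, 242.9 and 242.7 in wild-type and 221.1, 181.4 and 214.1 in mutant embryos, with a difference of -0.18 (SE 0.15) with overlapping groups. Prep, a peptidase gene on the other side, differed by -0.05 (SE 0.21). The remaining 4 differed by -0.49 to -0.01, and 0 of the 6 had an unadjusted p under 0.05, beside 5.37% of all genes. Both group means of Crybg1 and of Bves lay under the highest bacterial control.

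The genes whose signal across the 6 arrays was most like that of Prdm1 were ranked by Pearson r on the log2(signal + 16) scale. The ranking took the 94 other genes with a mean signal of at least 100 and at least a 1.5-fold difference between the genotypes. Each r describes 6 arrays that fall into 2 genotype groups, so it mostly reflects the genotype difference that was asked for, and it carries no p. Car2, a carbonic anhydrase, came first with r = 0.99, reading 652.0, 595.9 and 606.7 in wild-type and 383.2, 382.7 and 373.7 in mutant embryos. Like Prdm1, it was nearly constant within each group, with a difference of -0.68 (SE 0.14). Then came the stress gene Gadd45g (r = 0.95), the intermediate filament gene Nes (0.94), the sphingosine kinase gene Sphk2 (0.93), the zinc finger gene Zfp213 (0.92) and Castor2 (0.91). The differences of these 6 genes ran from -0.81 to -0.67. At other probe sets Sphk2 differed by -0.41, while Nes differed by -0.11 and 0.33 and Castor2 by 0.24. None of the 5 of these genes with a promoter in the table had a GATA-type word in its window, against 22.8% of the 9887 measured genes with one.

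**Figure D4:**
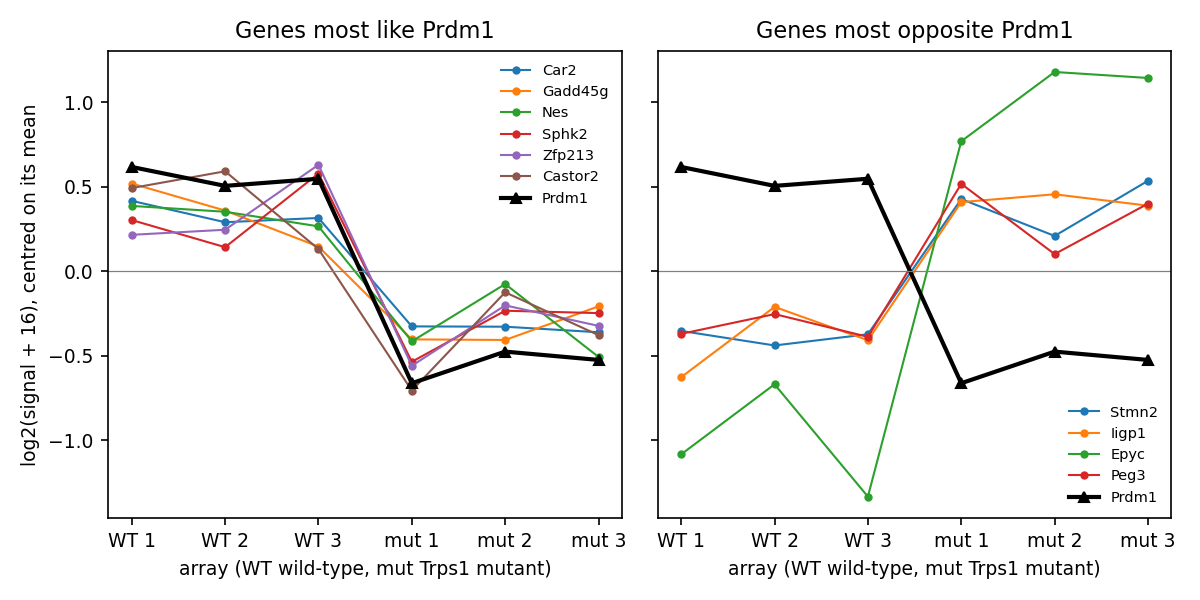
Log2(signal + 16), centred on each gene's mean over the 6 arrays, for the 6 genes most like Prdm1 (left) and the 4 most opposite (right), with Prdm1 in black. Lines only join the points of a gene, since replicates have no order, and every gene shown changes sides between the genotypes.

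The genes most opposite to Prdm1 were Stmn2 and Iigp1 (r = -0.97 each), then Epyc and Peg3 (r = -0.96 each). Epyc, a small proteoglycan of cartilage, read 33.0, 49.3 and 25.2 in wild-type and 160.9, 219.0 and 213.3 in mutant embryos, with a difference of 2.06 (SE 0.22), the highest of all genes. Iigp1, an interferon-inducible GTPase, differed by 0.83 at this probe set and by 1.57 at a dimmer one. Stmn2, of neuronal growth cones, differed by 0.78 and by 0.35 at its other probe set, and Peg3, an imprinted zinc finger gene, by 0.68 and by 0.23 and 0.37 at its others. Both promoter windows of Epyc are shown for contrast with that of Prdm1, a choice made after its values were seen. They lie on the plus strand of chromosome 10 at chr10:97643818-97644067 and chr10:97646853-97647102 (GRCm38.p6, RefSeq), and capitals mark the GATA-type words.
Epyc, first start: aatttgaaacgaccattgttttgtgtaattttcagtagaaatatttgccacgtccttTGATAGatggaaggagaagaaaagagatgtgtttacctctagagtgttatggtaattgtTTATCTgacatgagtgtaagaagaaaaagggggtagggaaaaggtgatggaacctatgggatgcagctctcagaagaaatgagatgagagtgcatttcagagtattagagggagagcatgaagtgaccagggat
Epyc, second start: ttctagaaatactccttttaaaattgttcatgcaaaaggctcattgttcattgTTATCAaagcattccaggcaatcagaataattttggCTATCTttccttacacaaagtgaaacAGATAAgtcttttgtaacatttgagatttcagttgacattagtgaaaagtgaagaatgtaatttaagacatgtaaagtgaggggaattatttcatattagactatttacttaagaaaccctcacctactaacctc
The first window holds 2 such words and 2 CG dinucleotides and the second 3 and 0, where Prdm1 had 0 words and 15 CG dinucleotides. Peg3, the only other of these opposite genes with a promoter in the table, also had 0 words, with 8 CG dinucleotides. Over the 2255 measured genes with a GATA-type word, 3.15% were lower and 3.19% higher at an unadjusted p under 0.05 by limma. Over the 7632 without it those shares were 2.08% and 2.69%. A match is a run of letters and does not show that Trps1 binds there.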

How the data were processed

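RNA of 3 wild-type and 3 Trps1 mutant whisker pads was measured on 6 one-colour arrays. The deposited value table holds 1 linear intensity for each of 22690 probe sets and array. The way probes were summarised was not given in the sources used here. The arrays had already been brought to one level (2% trimmed means of 249.6 to 249.9). A second table from the authors gives a linear fold (ratio) and 2 normalized log2 group values for 65 probe sets. It was made with GeneSpring GX 10.0 at a p of at most 0.05 and 1.5-fold, per the submitters' design text.

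The 64 control probe sets were left out, 16 was added to each signal and log2 taken. Of 22626 probe sets, 20380 had 1 gene in the platform annotation, 691 several and 1555 none. Symbols were updated by gene number to GRCm38.p6 (20351 matched), and the brightest probe set stood for a gene. Differences between the genotypes were fitted with limma 3.58.1 in R 4.3.3, two-sided, over all 12393 genes with Benjamini-Hochberg adjustment, without covariates. The fit was also run on simulated arrays with noise drawn independently for each gene and array. Those lack effects that genes of an array share, so they do not measure the power on these arrays. At most 0.358% of signals were equal between any 2 arrays. With 3 arrays a group, that number sets the precision.

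The gene and the lists were chosen with earlier results of these data known. Genes named were Prdm1, Trps1, 3 measured neighbours on each side, the 6 most like and 4 most opposite genes, up to 4 members of a list by smallest unadjusted p, and PRDM and partner genes. Members outside that rule (Sox2, Cxcr4, Hey1, Vcan, Crabp1, Ptch1, Foxd1, Inhba, Ncam1, Lef1, Bmp8b, Bmp2, Bmpr1a, Krt17, Edaradd, Myc, Mecom, Dnd1, Tfap2c, 2 collagen genes and the defining markers of other cell types) were named after their values were seen. Alternatives were quantile normalization, equal medians, an offset of 1, a floor of 32, the replicate number as a block, each array left out, and, for counts over all genes, other filters, variance priors, array weights, probe set rules and the methods' t-test.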

Additional observations from a re-analysis of the deposited data

How the results depend on the processing

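The Prdm1 difference of -1.11 kept its sign in every alternative run. It was -1.20 with an offset of 1 and -1.20 with a floor of 32, where the 16 no longer pulls it toward 0, -1.12 with quantile normalization or equal medians, and -1.15 to -1.06 when single arrays were left out. Trps1 ran from 0.62 to 0.86 when single arrays were left out. With the replicate number as a block, Prdm1 stayed at -1.11, since the design is balanced, 0 genes passed and 730 had an unadjusted p under 0.05. Deviations of same-numbered arrays correlated at 0.038, 0.069 and 0.14 over all probe sets, and the numbers were not taken to pair embryos. Both replicate 3 arrays did stand together on the first principal component, and whether same-numbered arrays shared handling was not tested. The count of genes past an adjusted p of 0.05 was 0 in all alternatives but the one that left out the probe sets of lowest mean signal, where 1 gene passed among 8813 tested. Genes with an unadjusted p under 0.05 numbered 589 to 921 when single arrays were left out and 981 without both replicate 3 arrays. Of the 10 genes named as most like or opposite to Prdm1, 10 were named again with quantile normalization, 1 without a minimum on the mean signal and 1 by the correlation within groups. That ranking therefore depends on the minimum and on the genotype difference. Signals near the highest bacterial control (33.8) limit what can be said of Nog, Fgf10, Lhx2, Sox21, Mecom and the lymphocyte markers, and the single probe set limits what can be said of Prdm1.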
